A study of Mus musculus with 10 samples.

Results

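Transcripts of 9 genes of the B cell lineage were followed through RNA-seq libraries of Ly6G+ cells. The genes were taken by name from the deposited table, whatever their values: *Cd79a*, *Cd79b*, *Ms4a1*, *Ighm*, *Ighd*, *Igkc*, *Cd22*, *Ebf1* and *Pax5*. All 9 were found, among 28185 genes in all, and all 9 passed the minimum of 10 normalized counts on average that a gene needed to be tested. Each is described in all 10 libraries, with every blood library given apart.

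The libraries came from male C57Bl/6J mice aged 12 to 16 weeks, all with the left coronary artery (LCA) tied to cause a myocardial infarction (MI). Cells were taken at day 3 from the dissociated infarcted left ventricle or from blood, and those held by anti-Ly6G microbeads on a magnetic column were sequenced as total RNA. The MI group (heart, libraries 13, 19 and 20) and the Blood group (libraries 21 and 22) received no cells. The MI + MSC group (heart, libraries 15, 17 and 18) and the Blood + MSC group (libraries 23 and 24) came from mice given syngeneic bone marrow mesenchymal stromal cells (MSCs) under the skin at 3 sites, 1000000 cells each, shortly after the ligation. Each library keeps the number that its label gives it. The study's methods name the single animal as the unit of its in vivo work, and its sequencing is described with an equal number of mice in every group, whereas each blood group here has fewer libraries than each heart group. The labels do not say which libraries came from separate mice or which heart and blood libraries shared a mouse, so that the p-values measure the spread between these libraries, which may in part be technical.

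A B cell carries an antigen receptor made of heavy chains (IgM or IgD, whose constant parts are encoded by *Ighm* and *Ighd*), light chains (mostly kappa, constant part *Igkc*) and a signalling pair, CD79A and CD79B, that passes the signal into the cell. CD20, encoded by *Ms4a1*, is a surface protein of mature B cells, and CD22 is a sialic acid-binding lectin that dampens receptor signalling. EBF1 and PAX5 are the transcription factors that start and hold the B cell programme. *Ebf1* is also used outside the lineage, among other places in stromal, fat and mural cells. Ly6G, the antigen used for the selection, is a neutrophil protein that B cells do not carry, and these 9 transcripts were followed as a measure of lymphocyte RNA in a neutrophil preparation.

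Recovered reads per library ran from 148594 (MI 13) to 8602711 (Blood + MSC 24). MI 13 and Blood 21 stood apart: a read was worth 8.40 and 7.07 normalized counts there, against 0.168 to 2.30 in the others, and 7 and 8 of the 9 genes, respectively, had 3 reads or fewer. Results are therefore also given without these 2 libraries, an alternative chosen after seeing the data. The Blood group is then Blood 22 alone, which was assumed to vary like the libraries of the other groups and which holds the higher B cell values of its group. The 14 neutrophil markers summed to 2046 to 8873 reads per 1000000 recovered reads of the library (RPM) in heart and to 11583 to 27813 in blood libraries, and *Ly6g* itself was detected in every library. Intervals and limits given for single libraries cover counting error only.

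The genes were placed on the GRCm39 build with the GENCODE M39 annotation. *Cd79a* (chr7:24596740-24601622, plus strand) and *Cd22* (chr7:30564827-30579767, minus strand) share chromosome 7. *Cd79b* (chr11:106202167-106205588, minus strand) and *Ebf1* (chr11:44508138-44898918, plus strand) share chromosome 11. *Ighd* (chr12:113370224-113379944) and *Ighm* (chr12:113382178-113386350) are neighbours on the minus strand of chromosome 12. *Igkc* (chr6:70703419-70703950, plus strand), *Pax5* (chr4:44524757-44710487, minus strand) and *Ms4a1* (chr19:11227039-11243605, minus strand) stand alone. Exons of *Cd79a*, *Igkc*, *Cd22* and *Pax5* overlap noncoding genes of the opposite strand, and the authors counted reads by strand.

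The 250 bases before the start of *Cd79a* and *Cd22* are shown because these surface genes lie downstream of EBF1 and PAX5 in the B cell programme, while their transcripts and that of *Ebf1* differed in distribution over these libraries. The sequences are RefSeq's for GRCm38.p6, an older build than that of the counts, at chr7:24897247-24897496 on the plus strand and chr7:30879029-30879278 on the minus strand, written 5′ to 3′ with motif matches in capitals.
Cd79a: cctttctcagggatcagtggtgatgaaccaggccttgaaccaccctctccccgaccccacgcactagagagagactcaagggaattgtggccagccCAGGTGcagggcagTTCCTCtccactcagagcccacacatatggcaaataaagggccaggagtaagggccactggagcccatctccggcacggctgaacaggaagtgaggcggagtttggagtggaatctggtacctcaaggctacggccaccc
Cd22: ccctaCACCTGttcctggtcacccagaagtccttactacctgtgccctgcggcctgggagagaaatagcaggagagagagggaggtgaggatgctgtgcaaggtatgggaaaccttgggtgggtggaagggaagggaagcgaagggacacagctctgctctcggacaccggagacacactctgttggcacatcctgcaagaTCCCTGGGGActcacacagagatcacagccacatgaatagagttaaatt
The 4 motifs were searched on both strands, and none of the matches shown overlap. The EBF motif TCCCNNGGGA was found in the *Cd22* sequence, starting 49 bases before the gene start, and occurs in 0.779% of 32851 promoter windows of this length. The E box CAGGTG was found in *Cd79a* (154 bases before the start) and, on the opposite strand, in *Cd22* (245 bases before), and occurs in 17.2% of windows. The PU.1 core GAGGAA was found on the opposite strand in *Cd79a* (140 bases before) and in 1 of 2 *Ebf1* windows (130 bases before), and occurs in 23.3%. The octamer ATGCAAAT (1.60% of windows) was in none of the windows of *Cd79a*, *Cd22*, *Ebf1* and *Pax5*, and *Pax5* held none of the 4. These are matches of letters and not measured binding sites. *Cd79b*, *Ms4a1*, *Ighm*, *Ighd* and *Igkc* had no entry.

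Taken as a sum, the 9 genes held 162, 155 and 121 RPM in MI 13, 19 and 20, and 166, 153 and 191 in MI + MSC 15, 17 and 18. In blood they held 134 and 423 RPM in Blood 21 and 22, and 171 and 660 in Blood + MSC 23 and 24. Heart libraries thus lay between 121 and 191 RPM. The blood libraries split within each group: the upper library of each stood above all 6 heart libraries, and the lower one within their range. Without *Ebf1*, the heart libraries ran from 85.6 (MI 20) to 168 RPM (MI + MSC 18). Mean sums over all 9 genes were 146 ± 21.5 (SD, n = 3) in MI, 170 ± 19.5 (n = 3) in MI + MSC, 278 ± 204 (n = 2) in Blood and 415 ± 345 (n = 2) in Blood + MSC. In such bulk samples, fewer B cells and less RNA per B cell cannot be told apart.

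**Figure D1:**
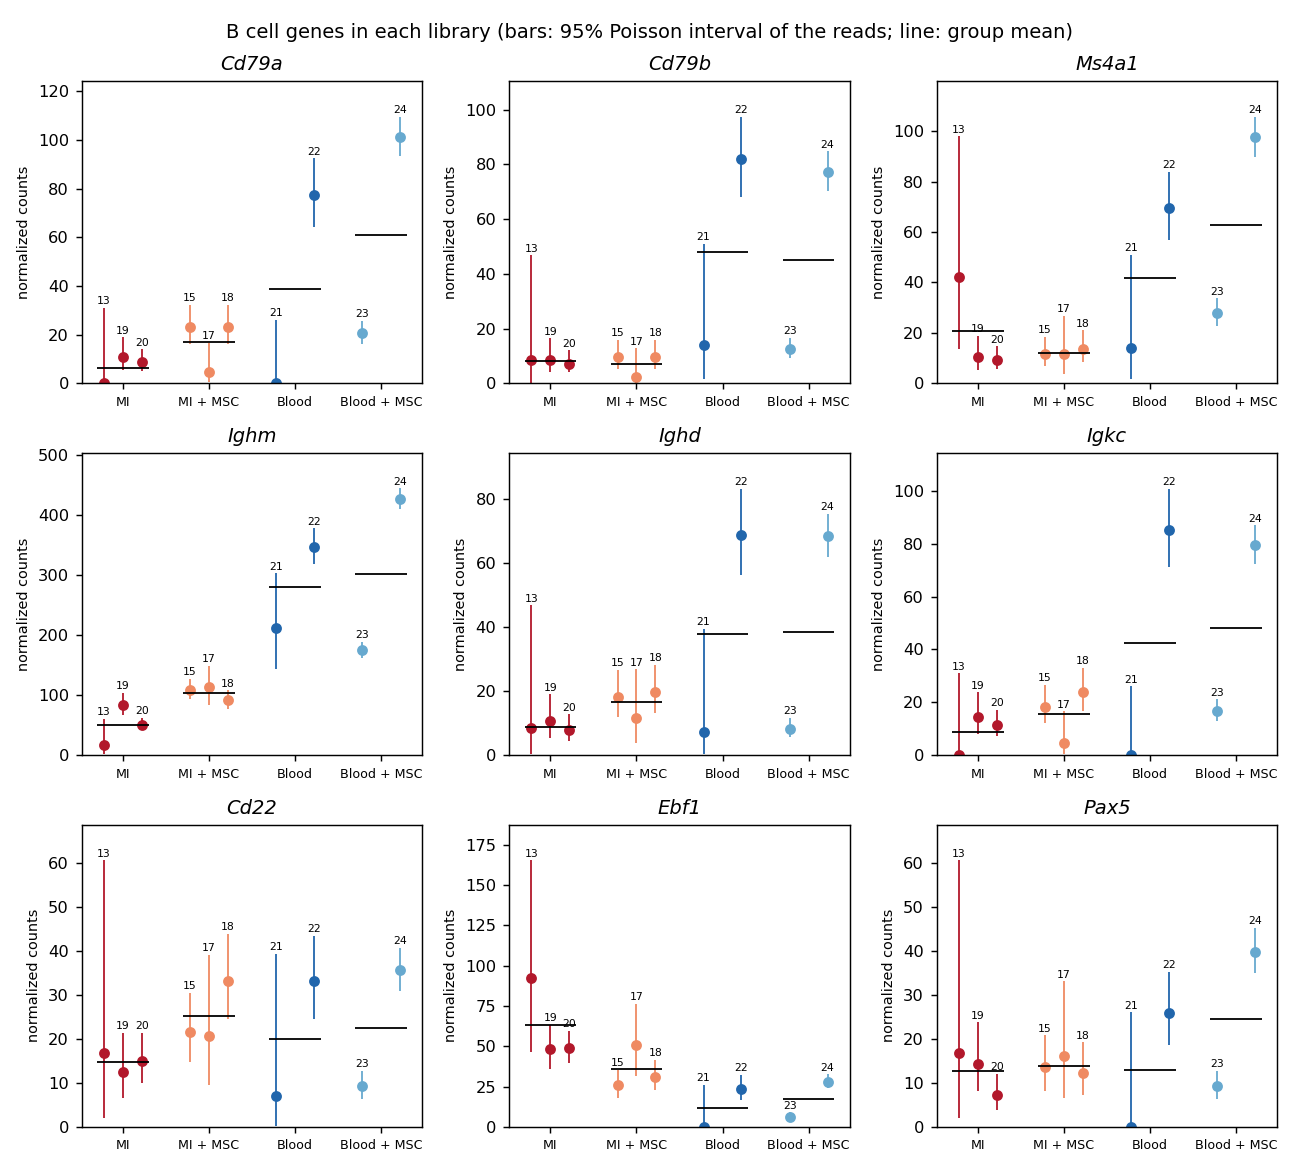
Normalized counts of each B cell gene (vertical axis, linear, from 0) in the 10 libraries by group, with library numbers above the points, 95% Poisson intervals of the reads as bars and group means as lines. Blood 22 and Blood + MSC 24 are the highest 2 libraries for 7 of the 9 genes, *Ebf1* is highest in MI 13, and the bars are long in MI 13 and Blood 21.

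The signalling pair of the receptor was low in heart and uneven in blood. *Cd79a* stood at 0, 10.6 and 8.75 normalized counts in MI 13, 19 and 20, at 23, 4.59 and 23 in MI + MSC 15, 17 and 18, at 0 and 77.3 in Blood 21 and 22, and at 20.5 and 101 in Blood + MSC 23 and 24. In MI 13 and Blood 21 no *Cd79a* read was counted, which allows up to 25.2 and 21.2 normalized counts (3 reads), so that in these 2 libraries *Cd79a* was not detectable at the level of most heart libraries. *Cd79b* stood at 8.40, 8.65 and 7.21 in the MI hearts and at 9.46, 2.30 and 9.49 in those with MSC, against 14.1 and 81.9 for the Blood libraries and 12.6 and 77.4 for Blood + MSC. All 6 heart libraries were below all 4 blood libraries for *Cd79b*, whereas *Cd79a* overlapped through Blood 21 and Blood + MSC 23.

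The immunoglobulin chains were led by *Ighm*. It reached 16.8, 83.6 and 50.4 normalized counts in MI 13, 19 and 20 and 109, 112 and 90.8 in MI + MSC 15, 17 and 18, with blood at 212 and 347 (no MSC) and 175 and 427 (MSC). *Ighm* was thus lower in every heart library than in any blood library, and lower in every MI than in any MI + MSC library. *Ighd*, the IgD heavy chain of mature naive B cells, stood at 7.07 and 68.9 in Blood 21 and 22 and 8.14 and 68.5 in Blood + MSC 23 and 24, while the heart had 8.40, 10.6 and 7.72 (MI) and 18.3, 11.5 and 19.7 (MI + MSC). *Igkc* stood at 0, 14.4 and 11.3 in the MI hearts and at 18.3, 4.59 and 23.7 in those with MSC, against 0 and 85.1 for the Blood libraries and 16.5 and 79.6 for Blood + MSC. For both chains the lower blood libraries lay among or below the heart libraries.

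*Ms4a1* (CD20) stood at 42.0, 10.6 and 9.26 normalized counts in MI 13, 19 and 20 and 11.5, 11.5 and 13.6 in MI + MSC 15, 17 and 18, with blood at 14.1 and 69.5 (no MSC) and 27.8 and 97.6 (MSC). The value of MI 13, the highest of the heart, rested on 5 reads. *Cd22* stood at 7.07 and 33.1 in Blood 21 and 22 and 9.19 and 35.7 in Blood + MSC 23 and 24, while the heart had 16.8, 12.5 and 14.9 (MI) and 21.6, 20.7 and 33.2 (MI + MSC). In each treatment, all *Cd22* values of the heart lay between those of the 2 blood libraries.

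Of the transcription factors, *Ebf1* stood at 92.4, 48.1 and 48.9 normalized counts in the MI hearts and at 25.7, 50.5 and 31.2 in those with MSC, against 0 and 23.4 for the Blood libraries and 6.04 and 27.9 for Blood + MSC. It was the only member with its highest library in the heart (MI 13, 11 reads), and the MI libraries did not overlap with the Blood libraries, whereas MI + MSC 15 was below Blood + MSC 24. *Pax5* stood at 16.8, 14.4 and 7.21 in MI 13, 19 and 20 and 13.5, 16.1 and 12.2 in MI + MSC 15, 17 and 18, with blood at 0 and 26 (no MSC) and 9.19 and 39.9 (MSC), with heart and blood overlapping.

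Per kilobase of exon, a scale on which genes can be set side by side, *Ighm* was highest in every group, from 26.7 normalized counts per kb in MI to 160 in Blood + MSC (group means). *Igkc* came next, from 16.1 in MI to 90.4 in Blood + MSC. In the Blood group, *Cd79b* (33.5), *Cd79a* (25.4) and *Ighd* (19.98) followed, then *Ms4a1* (6.76), *Cd22* (3.99), *Pax5* (1.47) and *Ebf1* (1.20). In the MI group the order changed, with *Ebf1* (6.47) next after *Igkc*, ahead of *Cd79b* (5.65). With 2 or 3 libraries per group, the neighbours in these orders mostly lie within each other's spread.

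The makeup of the sum differed between libraries. *Ighm* gave 30 of the 36 member reads of Blood 21 (83.3%, exact 95% binomial interval 67.2 to 93.6%) and 2 of the 24 of MI 13 (8.33%, 1.03 to 27.0%). In the remaining libraries its share ran from 30.4% (MI 20, 25.5 to 35.8%) to 61.4% (Blood + MSC 23, 58.4 to 64.3%). Leaving out *Ebf1* brought the mean sum of MI to 97.7 RPM and that of MI + MSC to 146, against 272 in Blood and 404 in Blood + MSC.

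The effect of MSC treatment, which the study set out to measure in both compartments, was compared first. In heart, limma called none of the 9 genes between MI + MSC and MI, and none of the 11549 genes tested (0.0% called), where a call needed a log2 fold change of 0.5 or more in size beside an adjusted p under 0.05. At an unadjusted p under 0.05, 1 member (*Ighm*) was counted as higher, where 3.26% of tested genes were. edgeR called 0 members and 0.0545% of its genes, and DESeq2 0 members and 0.759%. *Ighm* averaged 104 ± 11.6 normalized counts (SD, n = 3) in MI + MSC against 50.3 ± 33.4 (n = 3) in MI, a log2 fold change of 1.27 (SE 0.51) with a limma adjusted p of 0.606. Fold changes are differences of mean log2(normalized count + 2), which understate the change of genes low in both groups but can exceed the fold of the group means where 1 library of a group is at 0. *Cd79a*, *Igkc*, *Ebf1* and *Pax5* are at 0 in Blood 21, and their values against Blood rest on that library.

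The members *Ighm*, *Ighd* and *Cd22*, 3 in number, were higher in all MI + MSC than in all MI libraries, as were 7.05% of all tested genes. *Ighd* had a log2 fold change of 0.74 (SE 0.79) and *Cd22* of 0.68 (SE 0.57). The values of the others were 1.31 (SE 1.23) for *Cd79a*, 0.99 (SE 1.27) for *Igkc*, 0.16 (SE 0.85) for *Pax5*, -0.28 (SE 0.75) for *Cd79b*, -0.38 (SE 0.68) for *Ms4a1* and -0.77 (SE 0.80) for *Ebf1*. Each of these differences was smaller than, or close to, its standard error, and the median over the 9 genes was 0.68 against -0.01 over all tested genes. Without MI 13, which had 2 *Ighm* reads and none of *Cd79a* or *Igkc*, the fold changes were 0.66 for *Ighm*, 0.46 for *Cd79a* and 0.029 for *Igkc*. Without MI 13 and Blood 21, limma again called 0 members of the 9.

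In blood, Blood + MSC overlapped with Blood for all 9 members, whereas 21% of all tested genes were higher and 15.4% lower without overlap. limma called 0 of the 9 genes and 0.0% of all tested genes. At an unadjusted p under 0.05 there were 0 members, against 4.35% of tested genes higher and 3.00% lower. edgeR called 0 members and 0.448% of its genes, and DESeq2 0 members and 1.18%. Log2 fold changes ran from -0.11 (SE 0.91, *Cd79b*) to 1.93 (SE 1.51, *Cd79a*), through 0.01 (SE 0.62) for *Ighm*, 0.08 (SE 0.97) for *Ighd*, 0.20 (SE 0.70) for *Cd22*, 0.68 (SE 0.83) for *Ms4a1*, 1.12 (SE 0.98) for *Ebf1*, 1.53 (SE 1.04) for *Pax5* and 1.56 (SE 1.55) for *Igkc*. These values depended on single libraries: without Blood 22, the Blood group was Blood 21 alone, with 0 reads of *Cd79a*, *Ebf1* and *Pax5*, and limma called these 3 higher in Blood + MSC, as it did 9.43% of tested genes. Without Blood 21 the fold change of *Cd79a* was -0.72. The MSC effect in heart minus that in blood, tested as an interaction, was called for 0 members and 0.0% of all genes by limma, with 0 members under an unadjusted p of 0.05, where 2.36% of tested genes were higher and 4.90% lower. edgeR called 0 members and 0.0% of its genes, and DESeq2 gave none of the 9 genes an adjusted p in this test. Without Blood 22, 1 member (*Ebf1*) was called there, in the negative direction, as were 7.14% of tested genes.

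Within the blood groups the differences between libraries mostly exceeded counting error. Every one of the 9 genes was higher in Blood 22 than in Blood 21, and higher in Blood + MSC 24 than in Blood + MSC 23. The ratio of Blood + MSC 24 over 23 was 8.41 for *Ighd* (95% interval 5.83 to 12.5, counting error only), 6.14 for *Cd79b* (4.55 to 8.45), 4.94 for *Cd79a* (3.89 to 6.33) and 4.81 for *Igkc* (3.69 to 6.36). It was lowest for *Ighm*, at 2.44 (2.24 to 2.66), and between 3.50 and 4.62 for *Ms4a1*, *Cd22*, *Pax5* and *Ebf1*. The interval of *Ighm* lay below those of all the other members.

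Between Blood 22 and Blood 21 the ratios were less certain. Among the 5 genes with reads in both libraries, *Ighm* was again lowest, at 1.64 (1.13 to 2.45), *Cd79b* was at 5.79 (1.57 to 48.4) and *Ighd*, with 1 read in Blood 21, at 9.75 (1.71 to 389). *Cd79a* and *Igkc* had 0 reads in Blood 21, and the lower limits of their 95% intervals were 2.92 and 3.22. For 3 genes the interval reached below 1, with lower limits of 0.805 for *Cd22*, 0.852 for *Ebf1* and 0.952 for *Pax5*.

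**Figure D2:**
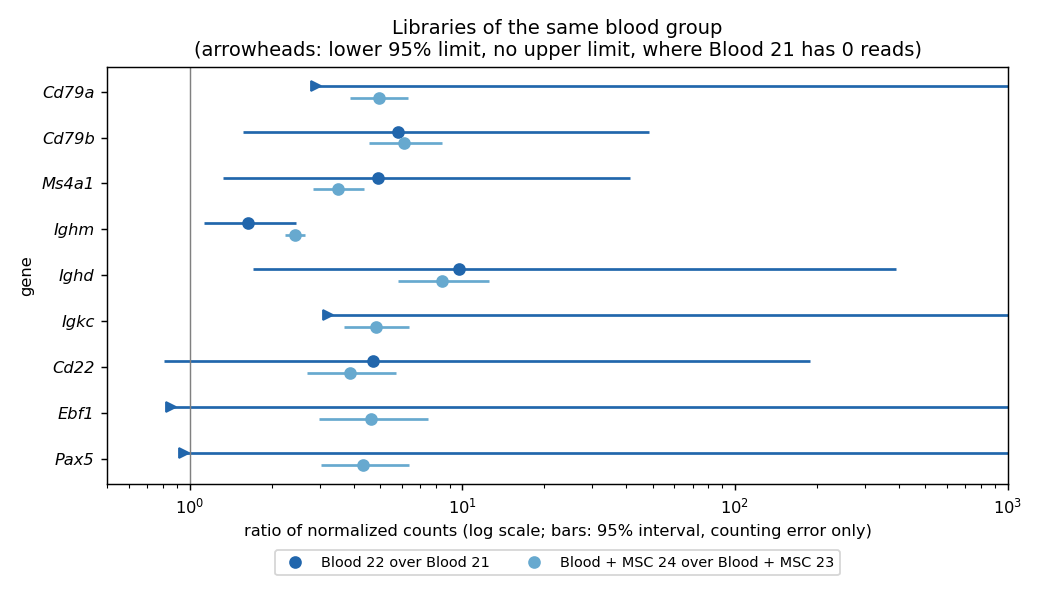
Ratio of normalized counts between the 2 libraries of each blood group (horizontal axis, log scale) for the 9 genes, with 95% intervals that cover counting error only and arrowheads at the lower limit, with no upper limit, where Blood 21 had 0 reads. The intervals of *Cd22*, *Ebf1* and *Pax5* between Blood 22 and 21 reach below 1, and the circles of *Ighm* are the lowest in both groups, 1.64 and 2.44.

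Other blood cell transcripts moved with these libraries. The 17 T cell markers summed to 33.5 and 131 RPM in Blood 21 and 22, and to 8.68 and 101 in Blood + MSC 23 and 24, with 14, 0, 2 and 0 of the 17 at 0. The 7 erythroid markers summed to 257 and 4975 in Blood 21 and 22 and to 1573 and 3916 in Blood + MSC 23 and 24. Natural killer cell markers (8 genes) stood at 7.44, 30.4, 6.31 and 26.7. B cell, T cell, natural killer and erythroid sums were thus all higher in Blood 22 and in Blood + MSC 24 than in the other library of their group. Neutrophil markers were higher in Blood 22 (27813) than in Blood 21 (23577), and lower in Blood + MSC 24 (11583) than in 23 (14247). Platelet markers reached 15915 RPM in Blood 21, against 448 to 646 in the other blood libraries. The part of these differences in cell content in the values of the 9 genes was not tested.

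**Figure D3:**
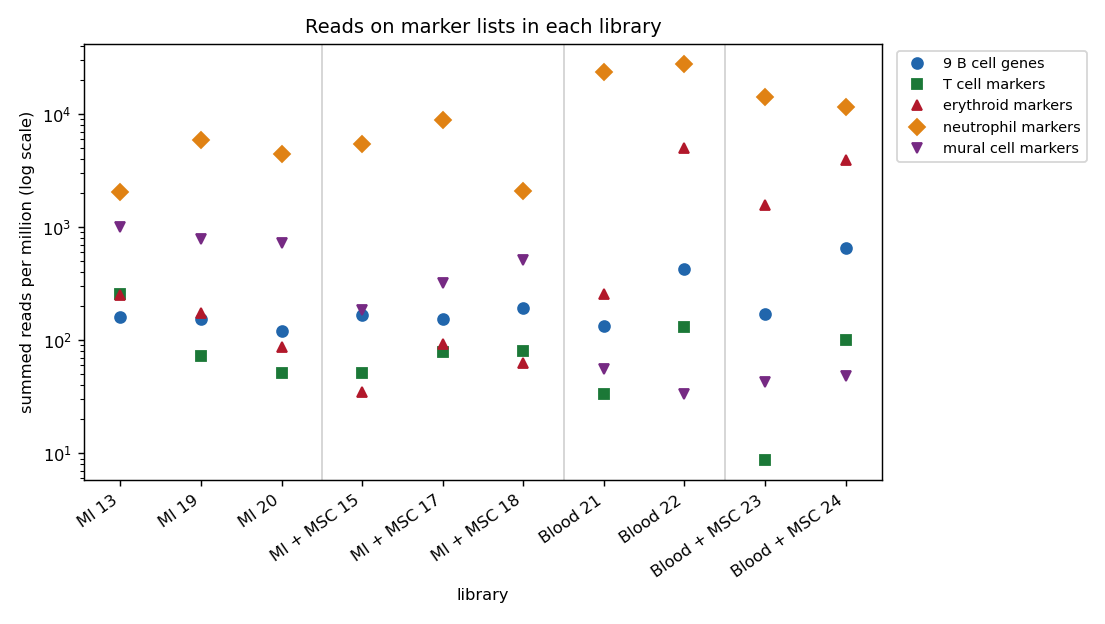
Summed RPM (vertical axis, log scale) of the 9 B cell genes and of 4 marker lists in each library, with grey lines between groups. B cell, T cell and erythroid points are higher in Blood 22 and Blood + MSC 24 than in the other library of the same group, and mural points lie higher in all heart libraries (187 to 996) than in blood (33.8 to 55.8).

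Heart and blood were compared next. Between MI and Blood, limma called 1 member lower, where 13.5% of all tested genes were lower, and 1 member higher, where 21.2% were higher. *Ighm* was lower in MI, with 50.3 ± 33.4 (SD, n = 3) against 279 ± 95.5 (n = 2) normalized counts and a log2 fold change of -2.64 (SE 0.57, limma adjusted p = 0.00557). *Ebf1* was higher, with 63.1 ± 25.4 against 11.7 ± 16.5 and a log2 fold change of 3.13 (SE 0.90, limma adjusted p = 0.0208). *Cd79b* and *Ighm* were lower in all MI than in all Blood libraries, as were 23.6% of tested genes, and *Ebf1* was higher in all, as were 31.6%.

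The other members did not pass in this comparison, at -1.87 (SE 0.83) for *Cd79b*, -1.23 (SE 0.88) for *Ighd*, -0.96 (SE 1.37) for *Cd79a*, -0.88 (SE 0.76) for *Ms4a1* and -0.80 (SE 1.42) for *Igkc*. *Cd22* was at -0.10 (SE 0.64), which turned positive when libraries were scaled by their size, and *Pax5* at 0.92 (SE 0.95). The median over the 9 genes was -0.88, against 0.15 over all tested genes. The log2 fold change of *Cd79b* was -3.06 without Blood 21 and -0.68 without Blood 22. Without Blood 22, where Blood 21 alone stands for Blood, 7 of the 9 fold changes were positive with a median of 0.88. limma then called *Ighm* lower (-2.29, adjusted p = 0.0340, 9.78% of genes lower) and *Ebf1* (4.96, adjusted p = 0.000771) and *Pax5* (2.82, adjusted p = 0.0190) higher, where 24.5% of genes were higher.

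Tests on the recovered reads called more of the receptor genes. edgeR called *Cd79a*, *Cd79b*, *Ighd*, *Ighm*, *Igkc* and *Ms4a1* lower in MI than in Blood, 6 of 9 where 13.8% of its genes were lower. DESeq2 called *Cd79a*, *Cd79b* and *Ighm*, 3 of 9 where 10.9% were lower. Without MI 13 and Blood 21, where Blood 22 alone stands for Blood, limma called the same 6 genes as edgeR (19.3% of genes lower), with log2 fold changes from -3.08 for *Cd79b* to -2.38 for *Ighm*. The call of *Ebf1* was lost in all of these, with a log2 fold change of 1.26 in edgeR (adjusted p = 0.113), 1.86 in DESeq2 (adjusted p = 0.0610) and 0.99 in limma without the 2 libraries (adjusted p = 0.261). It was also lost when MI 13 alone (2.82, adjusted p = 0.0634 in limma) or Blood 21 alone (1.29, adjusted p = 0.178 in limma) was left out, and without Blood 21, again with Blood 22 alone as the Blood group, limma called 4 members lower (*Cd79a*, *Cd79b*, *Ighd* and *Ighm*), as it did 13.8% of tested genes.

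Between MI + MSC and Blood + MSC, limma called 0 of the 9 genes in either direction, against 5.85% of tested genes lower and 8.23% higher. At an unadjusted p under 0.05 there were 3 members, *Cd79b* (-2.04, SE 0.83), *Ms4a1* (-1.95, SE 0.76) and *Ighm* (-1.38, SE 0.57), with limma adjusted p of 0.122, 0.106 and 0.122, and 14.1% of tested genes were lower at that unadjusted p. These 3 were also the members that were lower in every MI + MSC than in every Blood + MSC library, as were 29.7% of tested genes. Without MI + MSC 17, 0 members had an unadjusted p under 0.05. Without Blood + MSC 24 the log2 fold changes were -0.82 for *Cd79b*, -1.08 for *Ms4a1* and -0.75 for *Ighm*. With all libraries, edgeR called these 3 together with *Cd79a* and *Igkc*, 5 of 9 where 14% of genes were lower, and DESeq2 called the 3 (6.45% lower). Without MI 13 and Blood 21, limma called the same 3 (19.9% lower), and without MI 13 alone it called *Ighm* (10.6% lower).

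Among the other members here, *Cd79a* was at -1.59 (SE 1.37), *Igkc* at -1.37 (SE 1.42), *Ighd* at -0.56 (SE 0.88), *Pax5* at -0.45 (SE 0.95), *Cd22* at 0.37 (SE 0.64) and *Ebf1* at 1.23 (SE 0.90). For *Ebf1* the change of this difference with MSC, which is the interaction, was -1.90 (SE 1.27, limma adjusted p = 0.639). This value rested on single blood libraries, at -0.06 without Blood 21 and -3.73 without Blood 22. It was 0.24 without MI 13 and Blood 21 together, and -0.61 in edgeR.

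With both heart groups averaged against both blood groups, limma called *Cd79b* and *Ighm* lower in heart, 2 of 9 where 18.1% of all tested genes were lower, and *Ebf1* higher, 1 of 9 where 25.3% were higher. The log2 fold changes were -1.96 (SE 0.59, limma adjusted p = 0.0200) for *Cd79b*, -2.01 (SE 0.40, limma adjusted p = 0.00237) for *Ighm* and 2.18 (SE 0.63, limma adjusted p = 0.0171) for *Ebf1*. *Ms4a1* was just outside, at -1.42 (SE 0.53, limma adjusted p = 0.0507). *Ms4a1* was called lower in 9 of the 19 alternatives, among them limma with a pseudocount of 10, with no filter on low values, with TMM scaling and without MI 13. The same 2 genes were lower in all 6 heart than in all 4 blood libraries, as were 14% of tested genes. *Ighd* (-0.90, SE 0.63), *Cd79a* (-1.27, SE 0.97), *Igkc* (-1.08, SE 1.002), *Cd22* (0.14, SE 0.45) and *Pax5* (0.24, SE 0.67) were not called.

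For the averaged comparison edgeR called 7 members lower, all but *Cd22* and *Ebf1* (22.9% of genes lower), and DESeq2 called 6, the same without *Pax5* (10.8% lower). limma without MI 13 and Blood 21 called those 6 as well (26.5% lower), from -2.56 for *Cd79b* to -1.62 for *Ighd*. *Ebf1* was called higher in heart in all 3, at 0.96 in edgeR (adjusted p = 0.0444), 1.45 in DESeq2 (adjusted p = 0.0196) and 1.11 in limma without the 2 libraries (adjusted p = 0.0438). Without Blood 21 alone limma called the same 6 lower (20.8% of genes lower). The call of *Ebf1* was lost without Blood + MSC 23, and that of *Cd79b* without Blood 22 or Blood + MSC 24.

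**Figure D4:**
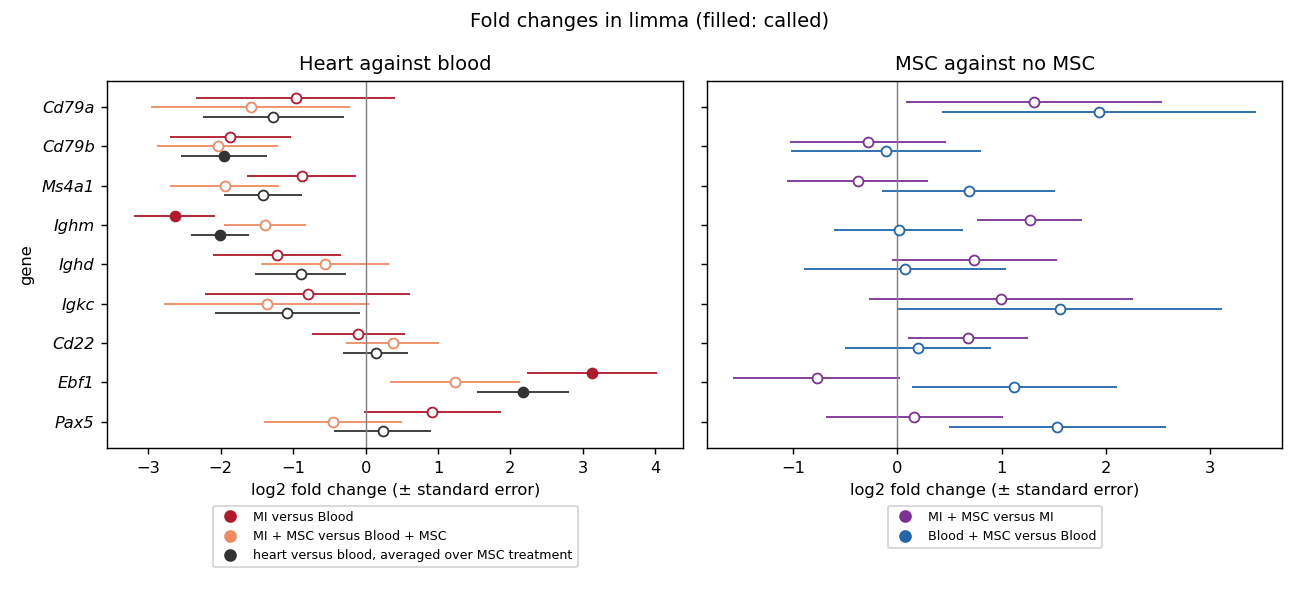
Log2 fold changes of the 9 genes (horizontal axis, differences of log2(normalized count + 2), bars are standard errors) for heart against blood (left) and MSC against no MSC (right), with filled points where limma called the gene. *Ighm* lies below 0 and *Ebf1* above 0 in all 3 heart against blood comparisons, and no point is filled in the MSC comparisons.

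Markers of several tissue cell types were also higher in heart than in most blood libraries, and their order over libraries matched that of *Ebf1* only in part. In MI, *Ebf1* and the mural cell sum were both highest in library 13. In MI + MSC, *Ebf1* was highest in library 17 and the mural cell sum in library 18. The 8 mural cell markers summed to 996, 790 and 723 RPM in MI 13, 19 and 20, to 187, 320 and 516 in MI + MSC 15, 17 and 18, and to 33.8 to 55.8 in the blood libraries. All 8 were detected in every heart library and in Blood + MSC 23 and 24, while in Blood 21 and 22, 6 and 3 were at 0. *Rgs5*, a pericyte gene, stood at 647 to 840 normalized counts in MI, 134 to 376 in MI + MSC and 0 to 0.650 in the blood libraries. The 10 heart muscle markers summed to 2166.1 to 18924 RPM in heart and 13.6 to 33.5 in blood libraries, and limma called all 10 higher in MI than in Blood. The 8 fibroblast markers summed to 635 to 1246 in heart and 274 to 581 in blood. The 8 endothelial markers summed to 280 to 1420 in heart and 45.7 to 61.9 in blood except Blood 21, which had 792 with 5 of the 8 at 0. Of the 7 tested in each of these lists, limma called 4 fibroblast and 5 endothelial markers higher in MI than in Blood, where 21.2% of all tested genes were. The 3 adipocyte markers in the table summed to 30.05 to 51.3 in heart and 2.52 to 7.44 in blood. Among the blood cell lists, T cell and natural killer cell sums overlapped between heart and blood. The T cell markers summed to 51.3 to 79.8 RPM in heart libraries other than MI 13, and 8.68 to 131 in blood. MI 13 had 256 RPM, from 38 reads. Natural killer cell markers summed to 14.7 to 27.9 in heart libraries other than MI 13, and 6.31 to 30.4 in blood. MI 13 had 53.8 RPM of these, from 8 reads. Platelet markers summed to 397 to 497 in MI, 568 to 1181 in MI + MSC and 448 to 646 in blood, except 15915 in Blood 21. The erythroid markers summed to 34.5 to 249 RPM in heart and 257 to 4975 in blood, and limma called 2 of 7 lower in MI than in Blood and 6 of 7 in MI + MSC than in Blood + MSC. Of the 12 neutrophil markers tested it called 10 and 3 lower in these comparisons, and of the 10 platelet markers 9 and 1, where 13.5% and 5.85% of all tested genes were lower. The part of these cell types in the *Ebf1* result and in the other differences between heart and blood was not tested.

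A further measure was the read density outside used genes. The 918 olfactory and vomeronasal receptor genes, which serve smell and pheromone sensing, held 822 to 11205 RPM in heart and 140 to 280 in blood libraries. Over their density per kb of exon, *Ighm* stood 2.79-fold higher in MI 13 and 2999-fold in Blood 22, and *Ebf1* 2.97-fold and 39.1-fold. In MI 13, where these receptor genes took the largest share of the reads, the 7 detected members stood between 0.595 and 2.97 times the receptor density, and in MI 19 and 20 between 1.86 and 67.4 times. In MI + MSC the lowest ratios were in library 17, at 1.26 for *Cd79b* and 1.43 for *Pax5*. Members near a ratio of 1 had about as many reads per kb as the receptor genes, whose part in the heart values was not tested.

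**Figure D5:**
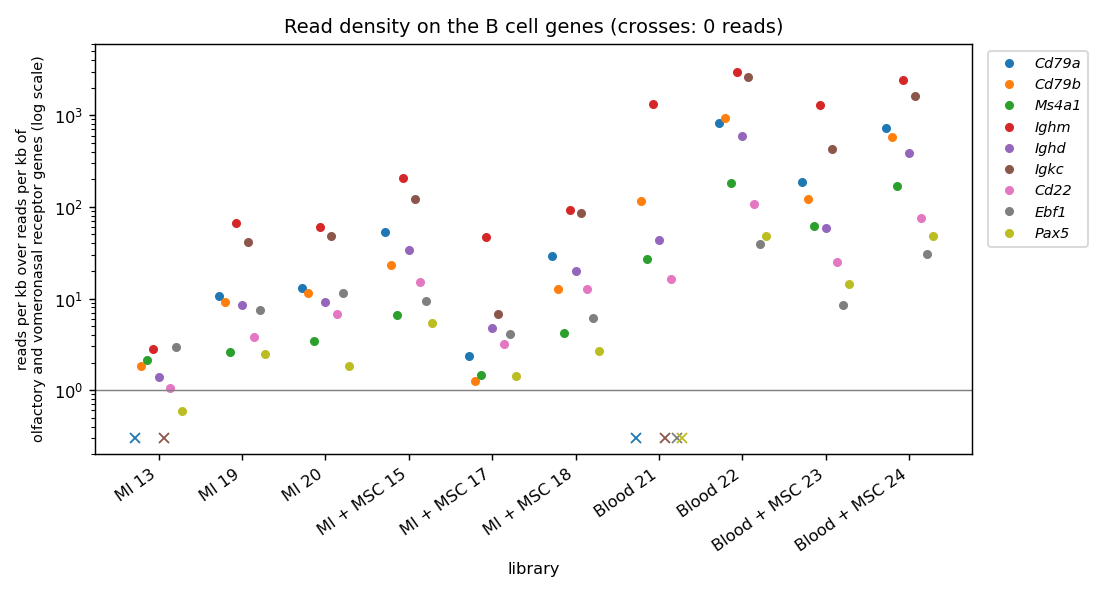
Reads per kb of each B cell gene divided by the reads per kb of 918 olfactory and vomeronasal receptor genes (vertical axis, log scale) in each library, with crosses for 0 reads. Points sit near 1 in MI 13 and lie up to 2999 in Blood 22.

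The 9 genes did not share a single pattern over the 10 libraries. As a description of log2(normalized count + 2), with libraries that also share depth, Pearson's r was 0.99 between *Cd79a* and *Igkc*, both at 0 in MI 13 and Blood 21, 0.84 between *Cd79b* and *Ms4a1* and 0.83 between *Ighd* and *Cd22*. *Ebf1* stood at 0.72 with *Pax5*, 0.53 with *Cd22*, -0.21 with *Cd79b* and -0.55 with *Ighm*. Of the genes outside the list, the most like the mean of *Cd79a*, *Cd79b* and *Ms4a1* over the 10 libraries were *Tent5c* (r = 0.956), *Psma4* (0.956), *Rps4x* (0.945), *Ethe1* (0.936), *Atg4a* (0.935) and *Btla* (0.932). Over the 8 libraries other than MI 13 and Blood 21, chosen after seeing the data, they included *Tent5c* (0.995), *H2-DMb2* (0.982), *Prxl2a* (0.971), *Rps4x* (0.971) and *Cd2* (0.969). Genes most like *Ebf1* over the 10 libraries were *Kctd3* (r = 0.988), *Zfp606* (0.985), *Ptp4a3* (0.983), *Dcaf1* (0.980), *Alkbh8* (0.977) and *Itpr3* (0.975), all at 0 in Blood 21 and highest in MI 13. Over the 8 libraries they were *Gm43011* (0.978), *Ptp4a3* (0.958), *Nbas* (0.950), *Kctd3* (0.950), *Tmcc2* (0.948) and *B230307C23Rik* (0.948), so that 2 of the 6 were shared.

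Other genes of the B cell pathway were read from lists. Of 18 further B cell surface and signalling genes, 13 were tested, and between MI and Blood limma called 2 lower, or 2 of 13 where 13.5% of all tested genes were lower, and 0 higher (median log2 fold change -0.45). These were *Cd37*, a tetraspanin found on many leukocytes, at -2.33 (SE 0.48, limma adjusted p = 0.00454), and *Siglecg*, a lectin that dampens receptor signals. *Siglecg* stood at 9.61 to 16.8 normalized counts in MI and 28.3 and 33.8 in Blood. The same 2 were called lower in MI + MSC than in Blood + MSC, where 5.85% of all tested genes were. *Cd38* and *Bank1*, the other abundant members of the list, were not called in any comparison.

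The 14 kinases, adaptors and phosphatases of antigen receptor signalling, many of which neutrophils use as well, were all tested, and limma called 7 lower in MI than in Blood (13.5% of all tested genes) and 4 lower in MI + MSC than in Blood + MSC (5.85% of all; median log2 fold changes -0.98 and -0.61). *Ptpn6*, a phosphatase that restrains the receptor, stood at 134 to 189 normalized counts in MI and 480 and 1521 in Blood, with a log2 fold change of -2.38 (SE 0.44, limma adjusted p = 0.00258). *Lyn* (-1.79, SE 0.41) and *Syk* (-1.50, SE 0.39), the first kinases of the cascade, were among those lower in MI. *Btk*, the kinase after them, was called in both comparisons, at -1.88 (SE 0.40, limma adjusted p = 0.0113) with MSC.

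Of 12 B cell transcription factors, which other blood cells and tissues also use, limma called *Foxo1* (1.87, SE 0.39) and *Bach2* higher in MI than in Blood, 2 of 12 where 21.2% of all tested genes were higher. *Spi1*, which encodes PU.1, was lower (-2.10, SE 0.53), 1 of 12 where 13.5% were lower. Between MI + MSC and Blood + MSC, *Spi1* was at -0.76 (SE 0.53, limma adjusted p = 0.350). Among plasma cell genes, 3 of 6 in the table were tested, and *Prdm1* and *Sdc1* were called higher in MI than in Blood, where 21.2% of all tested genes were. *Sdc1* stood at 64.4 to 75.6 normalized counts in MI and 16.2 and 21.2 in Blood, and it is also an epithelial and stromal gene. Between libraries with and without MSC, where limma called 0.0% of all genes in heart and in blood, it called 0 genes of each of these lists.

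The remaining immunoglobulin genes were sparse. None of 8 further constant genes reached the minimum for testing. *Iglc2*, a lambda light chain, stood at 7.07 and 22.1 normalized counts in Blood 21 (1 read) and 22, at 3.41 and 26.1 in Blood + MSC 23 and 24, and at 2.30 to 8.65 in the heart. *Igha*, the IgA heavy chain, stood at 0, 12.99, 0 and 0.336 in the same blood libraries and at 0.961 to 29.8 in the heart. The 35 heavy chain variable segments of the table together held 3.72 and 22.99 RPM in Blood 21 (1 read) and 22, 15.1 and 46.5 in Blood + MSC 23 and 24, and 7.07 to 28.5 in the heart libraries other than MI 13. MI 13 had the highest value, 80.8 RPM, from 12 reads. Heart and blood thus overlapped for these segments. The B cell precursor genes *Dntt*, *Rag1* and *Rag2* stayed at 14 reads or fewer in every library.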

How the data were processed

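The libraries were made from rRNA-depleted total RNA and sequenced as stranded pairs. The authors trimmed the reads (Trimmomatic), removed duplicates (Picard), mapped them to GRCm39 (STAR), counted them per gene and strand (featureCounts), removed mitochondrial reads and divided the counts by DESeq2 size factors. The deposited values are therefore a signal, here called normalized counts. The table named raw equals the table named normalized in all 281850 values, 0 of them whole above 0. Within each library 100.0% of values were whole multiples (tolerance 0.01) of the value of 1 read, which gave the recovered reads.

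Of 28185 gene identifiers, 27906 were in the GENCODE M39 annotation. limma 3.58.1 (R 4.3.3) was fitted with an intensity trend to log2(normalized count + 2) of all 10 libraries, with a mean per group, on the 11549 genes that averaged 10 or more normalized counts. p-values were adjusted by Benjamini-Hochberg over all of them, and a gene was called where the adjusted p was under 0.05 and the log2 fold change 0.5 or more in size (adjusted p alone for the interaction). edgeR 4.0.16 and DESeq2 1.42.0 on the recovered reads, other pseudocounts (1 and 10), filters and scalings, and leaving out each library were the alternatives. limma was tested on simulated data beforehand. A count of 0 was taken to allow 3 reads, and intervals are 95% Poisson or exact binomial.

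All 9 genes are given in every comparison. Of the other B lineage lists, the rule named every called gene, up to 6 per comparison by size, and the 3 most abundant per list, and *Bach2* and *Siglecg* in MI against Blood were named after their values were seen, to spell out a short count. The 9 genes and the lists were chosen with earlier results of these data known. One gene of the likeness ranking is not reported here.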

Additional observations from a re-analysis of the deposited data

How the results depend on the processing

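With 2 or 3 libraries per group and few reads in MI 13 and Blood 21, single libraries decided many values, and the cause of the changes below was not tested. The counts of called members were for MI against Blood 6 in edgeR and 6 without MI 13 and Blood 21 together, for MI + MSC against Blood + MSC 5 in edgeR, 3 in DESeq2 and 3 without both libraries, and for the averaged comparison of heart with blood 8, 7 and 7, against 2, 0 and 3 in the main analysis. Leaving out each library in turn, the counts ran from 1 to 4 (MI against Blood), 0 to 1 (MI + MSC against Blood + MSC), 2 to 7 (averaged), 0 to 3 (Blood + MSC against Blood) and 0 to 1 (interaction), with the highest without Blood 21, MI 13, Blood 21, Blood 22 and Blood 22, respectively. These ranges take both directions together. The share of all genes called differed between such fits as well, so that the counts are not directly comparable. Leaving out a blood library leaves its group with 1 library, assumed to vary like the others. No library left out gave a call between MI + MSC and MI. DESeq2 gave no adjusted p for the 9 genes in the interaction. Without *Ebf1*, the summed share was 97.7 RPM (reads per 1000000) in MI and 146 in MI + MSC.

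In the interaction, 3 of the 9 members were positive in the main analysis, 6 in edgeR and in DESeq2, and 9 without MI 13 and Blood 21. Leaving out Blood 21 alone gave 8 positive members, and Blood 22 alone 1. In the other comparisons, directions of log2 fold changes that were not called turned as follows. Without MI 13 and Blood 21, Blood + MSC against Blood gave -0.72 for *Cd79a*, -0.39 for *Ms4a1*, -0.34 for *Ighm*, -1.41 for *Ighd*, -1.16 for *Igkc*, -0.77 for *Cd22*, -0.71 for *Ebf1* and -0.37 for *Pax5*; MI + MSC against MI gave 0.25 for *Ms4a1*; MI against Blood gave -1.19 for *Pax5*; and the averaged comparison gave -0.40 for *Cd22* and -0.82 for *Pax5*. In edgeR, Blood + MSC against Blood gave -0.28 for *Ighd*, -0.18 for *Igkc*, -0.13 for *Cd22* and -0.012 for *Ebf1*, MI + MSC against MI gave 0.11 for *Cd79b* and 0.056 for *Ms4a1*, MI against Blood gave -1.14 for *Pax5*, MI + MSC against Blood + MSC gave -0.12 for *Cd22*, and the averaged comparison gave -0.64 for *Cd22* and -1.16 for *Pax5*. In DESeq2, Blood + MSC against Blood gave -0.16 for *Ighd* and -0.11 for *Cd22*, MI against Blood gave -0.57 for *Pax5*, and the averaged comparison gave -0.30 for *Cd22* and -0.70 for *Pax5*. Scaling by library size gave 0.35 for *Cd22* in MI against Blood and 0.17 for *Cd79b* in Blood + MSC against Blood, and it moved the median over all genes from 0.15 to 0.63 and from 0.11 to 0.37. TMM gave -0.0029 for *Ighm* in Blood + MSC against Blood, and a pseudocount of 10 gave -0.067 for *Pax5* in the averaged comparison.

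Leaving out each library in turn, Blood + MSC against Blood ran from -0.72 to 4.59 for *Cd79a*, -1.33 to 1.11 for *Cd79b*, -0.39 to 1.76 for *Ms4a1*, -0.62 to 0.65 for *Ighm*, -1.41 to 1.56 for *Ighd*, -1.16 to 4.28 for *Igkc*, -0.77 to 1.18 for *Cd22*, -0.71 to 2.96 for *Ebf1* and -0.37 to 3.44 for *Pax5*. MI + MSC against MI ran from -0.52 to 0.19 for *Cd79b*, -0.73 to 0.25 for *Ms4a1* and -0.15 to 0.37 for *Pax5*. MI against Blood ran from -3.62 to 1.69 for *Cd79a*, -1.96 to 0.19 for *Ms4a1*, -2.71 to 0.26 for *Ighd*, -3.52 to 1.92 for *Igkc*, -1.08 to 0.88 for *Cd22* and -0.98 to 2.82 for *Pax5*. MI + MSC against Blood + MSC ran from -1.96 to 0.83 for *Ighd*, -0.50 to 1.25 for *Cd22* and -1.40 to 0.50 for *Pax5*. The averaged comparison ran from -2.60 to 0.053 for *Cd79a*, -2.44 to 0.28 for *Igkc*, -0.35 to 0.63 for *Cd22* and -0.72 to 1.19 for *Pax5*. *Ighm* was called lower in MI than in Blood, and in heart than in blood on average, under all 19 alternatives. No paired analysis was possible because the groups share no replicate numbers in the labels.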

Other observations

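The variable segments of the light chains were sparse as well. The 32 kappa segments in the table together held 3.72 and 23.3 RPM in Blood 21 (1 read) and 22, 10.4 and 39.5 in Blood + MSC 23 and 24, 5.65 to 13.6 in the heart libraries other than MI 13 and 33.6 in MI 13 (5 reads), so that heart and blood overlapped. Lambda variable segments (3 genes) held 0, 5.41, 1.58 and 11.3 RPM in the same blood libraries and 0 to 2.79 in the heart. MHC class II genes (8 genes), which B cells share with macrophages and dendritic cells, summed to 573 and 1014 RPM in Blood 21 and 22, 978 and 3141 in Blood + MSC 23 and 24, 1085 to 1344 in MI, and 2952, 1017 and 3018 in MI + MSC 15, 17 and 18.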
